A study of Homo sapiens with 18 samples.

Results

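The genes described here encode the sensors of foreign or misplaced RNA in the cell and their closest partners: DDX58, IFIH1, DHX58, DDX60, EIF2AK2, TLR3, MAVS and TRIM25. They were picked by symbol with no threshold on their values, though with earlier results of these data known, and all 8 were found among the 55765 gene symbols of both count tables. RNA was sequenced from OVCAR3, an established human line of high-grade serous ovarian carcinoma grown as an adherent culture in medium with low serum. Of the 18 libraries, 9 belong to a first series, with 3 each of cells given natural human IgA of no particular specificity (non-specific IgA), cells given non-specific IgG and untreated cells. The other 9 belong to a second series, with 3 each of cells given BDNF IgA, which binds a secreted neurotrophin, cells given TSPAN7 IgA, which binds a membrane tetraspanin, and untreated cells. Each antibody was added at 0.5 µg/ml. Incubation lasted 24 h by the sample descriptions, although another description of the same experiments gives a shorter time. No group carried an added or deleted gene, and all cells were of 1 line. A figure legend of the study counts 3 experiments for the first series, but the sample labels do not say whether replicates were separate cultures. The p-values thus measure the spread between these libraries, part of which may be technical.

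Cells recognise RNA that should not be in the cytosol, such as the paired strands made by replicating viruses, through helicases of the RIG-I family. RIG-I (DDX58) and MDA5 (IFIH1) bind such RNA and then join the adaptor MAVS on mitochondria, which passes the signal to the kinases that switch on interferon genes. TLR3 reads the same kind of RNA inside endosomes rather than in the cytosol, and protein kinase R (PKR, EIF2AK2) answers it by phosphorylating the translation factor eIF2alpha. Epithelial cells make most of these proteins at a low level at rest, and several of the genes are themselves switched on by interferon.

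The promoter sequences are shown first because they bear on which of these genes carry the letters through which interferon acts. The interferon-stimulated response element has the core GAAA, 2 free bases, GAAA. The same core with 1 free base, GAAANGAAA, in which N is any base, was added after the sequences had been seen. In the lines that follow, capitals mark either of these motifs on either strand, and each window runs from 210 bases before to 6 bases after the gene start, read 5′ to 3′ along the gene (RefSeq, GRCh38.p14).
DDX58, chr9:32526191-32526406, minus strand: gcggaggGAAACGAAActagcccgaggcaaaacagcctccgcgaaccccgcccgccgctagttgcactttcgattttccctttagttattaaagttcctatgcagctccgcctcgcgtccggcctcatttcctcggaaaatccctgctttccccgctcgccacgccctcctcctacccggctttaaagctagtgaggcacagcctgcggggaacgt
IFIH1, chr2:162318679-162318894, minus strand: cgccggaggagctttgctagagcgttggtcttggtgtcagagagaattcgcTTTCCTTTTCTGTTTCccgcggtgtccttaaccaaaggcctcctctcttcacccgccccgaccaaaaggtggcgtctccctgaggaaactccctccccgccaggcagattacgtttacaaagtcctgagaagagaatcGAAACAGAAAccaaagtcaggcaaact
DDX60, chr4:168318747-168318962, minus strand: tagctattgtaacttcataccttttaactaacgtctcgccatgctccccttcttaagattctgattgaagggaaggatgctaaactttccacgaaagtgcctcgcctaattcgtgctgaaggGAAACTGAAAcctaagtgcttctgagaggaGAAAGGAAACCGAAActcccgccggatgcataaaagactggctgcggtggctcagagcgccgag
EIF2AK2, chr2:37156975-37157190, minus strand: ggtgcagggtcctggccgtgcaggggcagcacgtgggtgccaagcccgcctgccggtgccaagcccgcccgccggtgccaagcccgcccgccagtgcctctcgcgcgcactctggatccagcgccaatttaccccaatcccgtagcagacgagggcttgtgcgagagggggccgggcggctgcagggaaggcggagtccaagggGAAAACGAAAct
TLR3, chr4:186068946-186069161, plus strand: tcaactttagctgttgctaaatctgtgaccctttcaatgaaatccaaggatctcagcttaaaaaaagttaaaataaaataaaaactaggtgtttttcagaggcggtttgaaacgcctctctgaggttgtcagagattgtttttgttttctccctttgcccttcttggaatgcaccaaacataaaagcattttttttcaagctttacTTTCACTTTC
TRIM25, chr17:56914044-56914259, minus strand: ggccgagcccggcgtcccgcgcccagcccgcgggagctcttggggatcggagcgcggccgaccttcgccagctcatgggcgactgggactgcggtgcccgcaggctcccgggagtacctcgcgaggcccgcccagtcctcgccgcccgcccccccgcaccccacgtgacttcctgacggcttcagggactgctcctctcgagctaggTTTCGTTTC
MAVS, chr20:3846624-3846839, plus strand: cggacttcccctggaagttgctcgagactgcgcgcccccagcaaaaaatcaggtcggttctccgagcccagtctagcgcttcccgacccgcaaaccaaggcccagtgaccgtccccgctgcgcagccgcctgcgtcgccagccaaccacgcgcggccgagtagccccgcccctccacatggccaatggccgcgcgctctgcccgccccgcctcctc

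Of the 8 genes, 7 were matched in the promoter table, and DHX58 was not. The core with 2 free bases lay in 4 of the 7 promoters (57.1%), against 3.57% of 35116 promoters searched over 250 bases before and 50 after the start. It was found in IFIH1 (starting at -159, -153 and -21), DDX60 (-88 and -53), EIF2AK2 (-6) and TLR3 (-4). The 1-base spacing lay in 3 of 7 (42.9%), in DDX58 (-203), DDX60 (-58, overlapping the element at -53) and TRIM25 (-3), and in 3.12% of all promoters. Because this spacing was chosen after these sequences had been seen, the 2 shares cannot be compared. The gamma activated site, TTCNNNGAA, lay in DDX60 and TLR3 (28.6%, against 7.66%), and the AP-1 site, TGANTCA, in 0 of 7 (against 7.71%). MAVS alone of the 7 held none of these letters, but without the 1-base spacing DDX58 and TRIM25 held none either. A match is a description of the sequence and not evidence of a bound factor.

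The first series held 27920733 to 42371474 counts per library, and the second series 39254350 to 47381836. The lowest count of any of the 8 genes in any library was 17, for DHX58 in non-specific IgA replicate 3. In that library 19.1% of counts came from mitochondrial genes, against 5.75% to 8.32% in the other 8 of the first series. Replicates of the first series scattered more (common dispersion 0.0307) than those of the second (0.00303), and its fold changes were measured less precisely. Within the first series the scatter was largest between the non-specific IgA libraries. All 9 epithelial and serous carcinoma markers were detected in every group, and their summed level ran from 159939 to 253313 normalised counts. The 9 leukocyte markers summed to between 35.4 and 96.6 in every library, with MS4A1, a B cell gene, at 0 throughout the first series and CD3E, a T cell gene, at 0 throughout the second. Each reached at most 2 counts in the other series. PTPRC (10 to 56 counts in the first series, 6 to 24 in the second) and CD14 (9 to 37 and 14 to 45) were found in every library. Fibroblast markers summed to 563.2 to 1341 and were mostly COL1A1, and the 2 endothelial markers in the tables summed to at most 69. The fibroblast sum was 787.4 to 1341 with non-specific IgA and 643.1 to 870.9 in the other groups of that series, and its part in the results was not tested. Fewer cells of a kind and less RNA per cell cannot be told apart in such bulk libraries. Normalised counts put every library of a series at that series' mean effective size (library total times TMM factor), and levels were not compared between series.

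Between genes, levels were compared per kilobase of exon. In untreated cells of the first series EIF2AK2 stood highest, at 661.7 ± 18.3 normalised counts per kilobase (SD, n = 3). TRIM25 followed at 486.4 ± 25.8, MAVS at 158.2 ± 11, DDX58 at 133.9 ± 17.4 and IFIH1 at 81.8 ± 5.21. The kinase PKR and the ubiquitin ligase TRIM25 were thus well above the helicases. TLR3 (35.3 ± 4.34), DDX60 (17.2 ± 1.4) and DHX58 (13.3 ± 2.34) were the lowest on the same scale, and the ranges of MAVS and DDX58 overlapped. In the second series the order was the same, from EIF2AK2 at 1203 ± 24.2 to DHX58 at 27.6 ± 1.25 per kilobase. There the ranges of DDX58 (141.8 ± 11.8) and IFIH1 (131.1 ± 13.9) overlapped, as did those of TLR3 (47.9 ± 5.54) and DDX60 (35.9 ± 5.93). Taking the length of the longest transcript in place of all exons put TRIM25 above EIF2AK2, DDX58 above MAVS and DDX60 above TLR3 in both untreated groups.

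**Figure D1:**
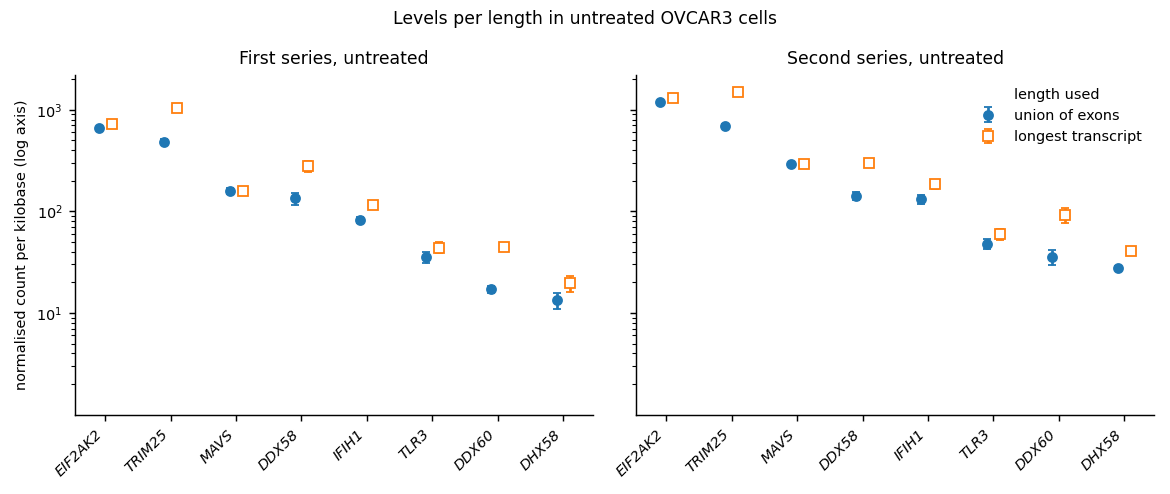
Normalised counts per kilobase of the 8 genes in untreated OVCAR3 cells, on a log axis, for each series (points, mean of 3 libraries; bars, SD). Circles use the length of all exons and squares that of the longest transcript, and EIF2AK2, TRIM25, MAVS and DDX58 take the upper 4 places with either length.

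The comparison of the antigen-specific IgAs with untreated cells asked how tumour cells respond to IgA that recognises a tumour antigen. The second series held no non-specific IgA, so antigen recognition and IgA as such cannot be told apart in it. The study describes the BDNF and TSPAN7 IgAs as purified from the medium of immortalised tumour B cells, and the effect of that source was not tested. Of the 8 genes, 7 rose with BDNF IgA and 0 fell, MAVS being the exception. Among all 18732 genes tested, 7.67% were called in either direction and 4.49% were higher (two-sided quasi-likelihood test in edgeR, adjusted p under 0.05 after Benjamini and Hochberg). With TSPAN7 IgA 6 of 8 rose and 0 fell, TLR3 and MAVS being the exceptions, against 8.54% of all genes called and 4.46% higher. The median log2 fold change of the 8 was 0.72 with BDNF IgA and 0.70 with TSPAN7 IgA, and that of all genes was 0.00 in each. With each antibody, all treated libraries lay above all untreated ones for 7 of the 8 genes. Among all genes tested this held for 12.8% with BDNF IgA and 14.4% with TSPAN7 IgA. Both comparisons share the same 3 untreated libraries, so their values are given side by side and their likeness was not tested.

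**Figure D2:**
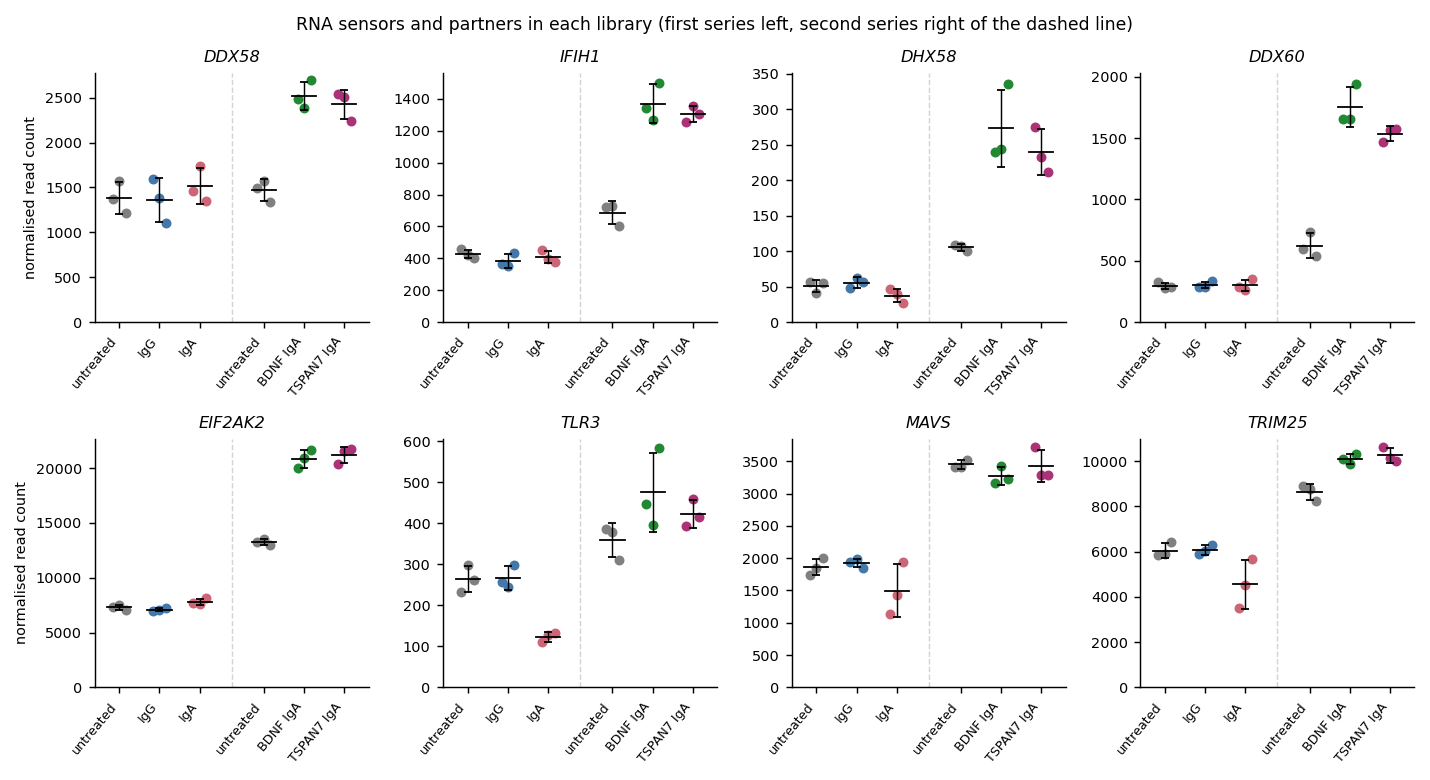
Normalised counts of each gene in every library (points), with the mean and SD of each group of 3 (bars), on linear axes from 0. In the second series every BDNF IgA and TSPAN7 IgA library lies above every untreated library for all genes but MAVS, and in the first series TLR3 is lowest in the 3 non-specific IgA libraries. With each antibody taken alone, the treated libraries lie above the untreated ones for 12.8% (BDNF IgA) and 14.4% (TSPAN7 IgA) of all genes. The non-specific IgA libraries lie below the IgG libraries for 20.6% of all genes and below the untreated ones for 20.1%.

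DDX58 on chromosome 9 (GRCh37, 32455300 to 32526206, minus strand) encodes RIG-I, which recognises RNA ends that carry a triphosphate. Its normalised counts were 2485, 2387 and 2693 with BDNF IgA, 2537, 2506 and 2240 with TSPAN7 IgA, and 1492, 1575 and 1334 in untreated cells. All 6 treated libraries lay above the untreated ones, and the 2 treated groups overlapped. Log2 fold changes were 0.78 (SE 0.07, adjusted p = 4.13e-08) with BDNF IgA and 0.73 (SE 0.07, adjusted p = 1.34e-07) with TSPAN7 IgA. In the annotation used for positions, a protein-coding gene without a symbol (32455321 to 32552601) overlaps DDX58 on the same strand. Reads shared by both may have been lost or shared in counting.

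IFIH1 (chromosome 2, 163123584 to 163175194, minus strand) encodes MDA5, the sensor of long paired RNA. It reached 1341, 1268 and 1503 normalised counts with BDNF IgA and 1256, 1357 and 1303 with TSPAN7 IgA, against 724.3, 729.3 and 601.4 without antibody. The lowest treated library was thus far above the highest untreated one. The fold change was 2 with BDNF IgA (95% interval 1.79 to 2.24, adjusted p = 1.07e-08) and 1.91 with TSPAN7 IgA (1.71 to 2.13, adjusted p = 3.92e-08).

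DHX58 (chromosome 17, 40253422 to 40264732, minus strand) encodes LGP2, a member of the same family without the signalling domains, which tunes the other 2 helicases. BDNF IgA libraries held 240.5, 243.7 and 335.5 normalised counts and TSPAN7 IgA libraries 274.6, 232.9 and 211.1, against 109.4, 107.2 and 100.2 in untreated cells. The 3 untreated libraries were close together and all treated ones stood well above them. On the log2 scale the change was 1.37 (SE 0.15, adjusted p = 2.21e-06) with BDNF IgA and 1.18 (SE 0.15, adjusted p = 1.79e-05) with TSPAN7 IgA.

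DDX60 (chromosome 4, 169137442 to 169240034, minus strand), a helicase described as a cofactor of RIG-I-like sensing, changed the most of the 8 in both comparisons. Its counts were 1658, 1658 and 1944 with BDNF IgA, 1470, 1568 and 1572 with TSPAN7 IgA, and 593.6, 737.4 and 538.2 untreated. The treated groups did not overlap the untreated one or each other. The fold change was 2.82 with BDNF IgA (2.48 to 3.2, adjusted p = 9.99e-11) and 2.47 with TSPAN7 IgA (2.17 to 2.81, adjusted p = 1.32e-09). DDX60 has a close paralogue, DDX60L, and reads from stretches alike in both may have been lost or shared in counting.

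EIF2AK2 (chromosome 2, 37326353 to 37384665, minus strand) encodes PKR, the kinase that halts translation when it binds paired RNA. Counts were 20031, 20904 and 21656 with BDNF IgA, 20379, 21527 and 21754 with TSPAN7 IgA, and 13249, 13550 and 13016 untreated. The spread within each group was small beside the gap between treated and untreated cells. EIF2AK2 changed by a log2 fold change of 0.65 (SE 0.04, adjusted p = 9.22e-10) with BDNF IgA and 0.68 (SE 0.04, adjusted p = 5.24e-10) with TSPAN7 IgA. Its 3′ end overlaps GPATCH11 on the other strand, and counting was not stated to use strand.

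TLR3 (chromosome 4, 186990065 to 187009227, plus strand), the endosomal receptor, responded less. It stood at 446.6, 396.5 and 583.5 normalised counts with BDNF IgA, 393.5, 459.5 and 416.8 with TSPAN7 IgA, and 387.0, 379.3 and 311.5 untreated. All treated libraries lay above the untreated ones, as did 12.8% of all genes with BDNF IgA and 14.4% with TSPAN7 IgA, and the lowest treated values were close to the highest untreated value. The log2 fold change with BDNF IgA was 0.41 (SE 0.12, adjusted p = 0.0401), and that with TSPAN7 IgA, 0.24 (SE 0.12, 95% interval -0.02 to 0.49, adjusted p = 0.262), did not pass the test. The BDNF IgA call rested on single libraries. Without BDNF IgA replicate 3 the log2 fold change was 0.23 (adjusted p = 0.297), and without untreated replicate 3 it was 0.31 (0.185). Leaving out BDNF IgA replicate 1, TSPAN7 IgA replicate 1 or 3, or untreated replicate 1 or 2 also ended the call (adjusted p 0.0508 to 0.0733), and over all 20 alternative settings the adjusted p ran from 0.00118 to 0.297.

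TRIM25 (chromosome 17, 54913748 to 54991441, minus strand), a ubiquitin ligase that acts on RIG-I, rose little but evenly. Its counts were 10087, 9864 and 10311 with BDNF IgA, 10638, 10140 and 10005 with TSPAN7 IgA, and 8914, 8744 and 8239 untreated. All 6 treated libraries exceeded the untreated ones. Its log2 fold change was 0.22 (SE 0.04, adjusted p = 0.00254) with BDNF IgA and 0.25 (SE 0.04, adjusted p = 0.000812) with TSPAN7 IgA. TRIM25 overlaps C17orf67 on the same strand and DGKE on the other, so that some reads of these genes cannot be told apart.

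MAVS (chromosome 20, 3827446 to 3856770, plus strand), the adaptor shared by RIG-I and MDA5, was the 1 gene of the 8 that passed the test with neither antibody. Libraries held 3158, 3426 and 3232 normalised counts with BDNF IgA, 3721, 3286 and 3284 with TSPAN7 IgA, and 3412, 3415 and 3524 untreated. The 3 groups overlapped. The log2 fold change was -0.08 (95% interval -0.19 to 0.03, adjusted p = 0.429) with BDNF IgA and -0.01 (-0.12 to 0.10, adjusted p = 0.953) with TSPAN7 IgA. BDNF IgA replicate 3 was the highest BDNF IgA library for the 7 genes that rose with BDNF IgA. Without it the values of DDX58, IFIH1, DHX58, DDX60, EIF2AK2 and TRIM25 were 0.73, 0.93, 1.20, 1.41, 0.62 and 0.21, and these 6 still passed the test.

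The direct comparison of TSPAN7 IgA with BDNF IgA asked whether the antigen matters. It gave 0 of 8 genes in either direction, against 7.92% of all genes called by edgeR. DESeq2 also called 0 of the 8. At an unadjusted p under 0.05, 4222 of 18732 genes differed, DDX60 being the only one of the 8. DDX60 was the nearest to a difference, with all TSPAN7 IgA libraries below all BDNF IgA libraries, as for 12.1% of all genes, and a log2 fold change of -0.19 (95% interval -0.36 to -0.02, adjusted p = 0.167). For DDX58 the interval was -0.19 to 0.08, for IFIH1 -0.22 to 0.08, for EIF2AK2 -0.07 to 0.11, for MAVS -0.04 to 0.18 and for TRIM25 -0.07 to 0.12. DHX58 (-0.47 to 0.09) and TLR3 (-0.42 to 0.08) were measured less precisely. Differences of these sizes remain possible, and the test does not show that the antibodies act alike.

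**Figure D3:**
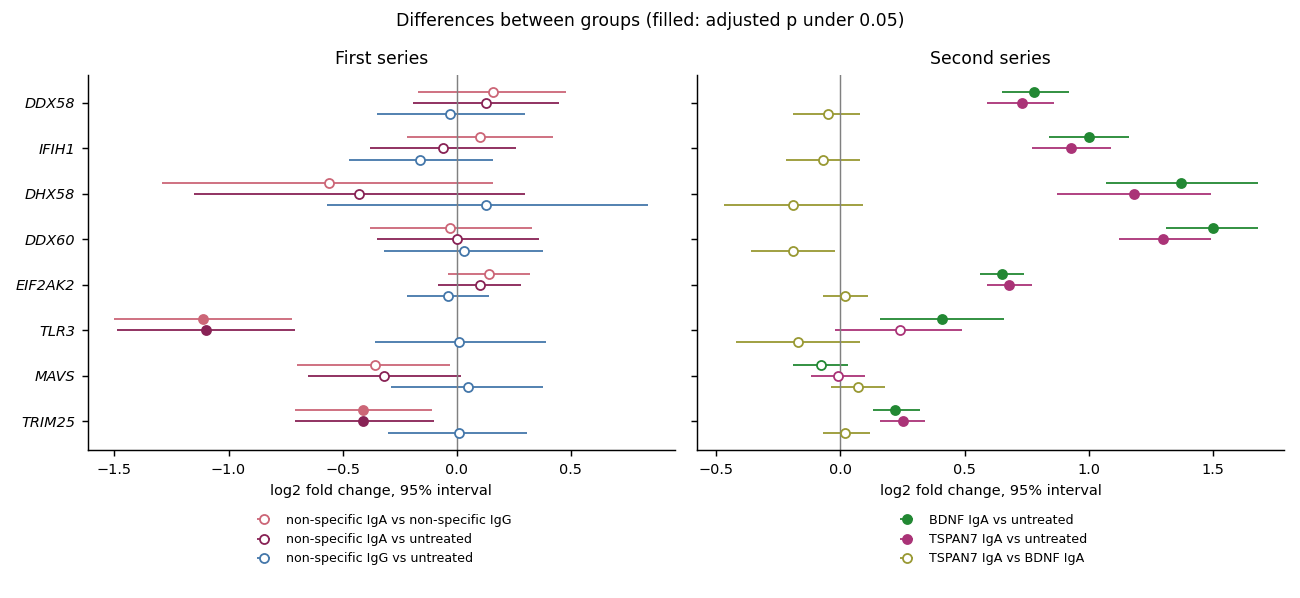
Log2 fold changes of the 8 genes in the 6 comparisons (points) with 95% intervals (lines). Filled points passed the test at an adjusted p under 0.05; they number 7 and 6 for BDNF IgA and TSPAN7 IgA against untreated cells, all to the right of 0, and 2 in each non-specific IgA comparison, both to the left.

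In the first series, the comparison of non-specific IgA with IgG and with untreated cells asked what IgA does apart from antigen recognition. TLR3 and TRIM25 were lower with non-specific IgA in both comparisons, 2 of 8 genes, and 0 were higher. Among all 18012 genes, 24.2% were called against IgG (11.6% lower) and 25.0% against untreated cells (12.1% lower), so that 2 of 8 is no result about these genes as a group. The median log2 fold change of the 8 was -0.19 in each comparison and that of all genes -0.01.

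TLR3 fell the most of the 8. Its normalised counts were 109.9, 128.9 and 132.7 with non-specific IgA, 256.7, 244.9 and 299.7 with IgG, and 233.6, 298.5 and 261.8 untreated. The IgA libraries lay well below all others. They were below without overlap for 20.6% of all genes against IgG and 20.1% against untreated cells. TLR3 had a log2 fold change of -1.11 against IgG (SE 0.18, adjusted p = 0.0011), a 2.16-fold lower level, and -1.10 against untreated cells (SE 0.18, adjusted p = 0.00103). It passed the test in all 19 alternative settings of each comparison, in which it ran from -1.34 to -1.02 and from -1.31 to -1.01.

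TRIM25 was at 3506, 4514 and 5663 with non-specific IgA, 5874, 6014 and 6296 with IgG, and 5831, 5879 and 6409 untreated. The IgA libraries were all below the others, as for 20.6% of all genes against IgG and 20.1% against untreated cells, but spread widely, and replicate 3, the library rich in mitochondrial counts, came near the controls. The log2 fold change was -0.41 in both comparisons (SE 0.14), with an adjusted p of 0.0478 against IgG and 0.0491 against untreated cells. This call held in only 7 of 19 alternative settings of each comparison. It was lost on leaving out any 1 of the 8 libraries other than IgA replicate 3, falling to -0.26 and -0.25 without IgA replicate 1, and with adjusted p from 0.00178 to 0.13 and from 0.00176 to 0.16 over all settings.

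MAVS followed the same order among the non-specific IgA libraries, at 1139, 1424 and 1935. It stood at 1937, 1980 and 1852 with IgG, and at 1743, 1842 and 2000 untreated. IgA replicate 3 lay among the controls. The log2 fold change of -0.36 against IgG (SE 0.15, adjusted p = 0.106) and -0.32 against untreated cells (SE 0.15, adjusted p = 0.155) did not pass the test. Without IgA replicate 3 it was -0.59 (adjusted p = 0.0025) and -0.54 (0.00391), both past the threshold, while without IgA replicate 1 it was -0.20 and -0.15, so that 1 library decided the call. Over all settings the adjusted p ran from 0.0025 to 0.306 and from 0.00391 to 0.44.

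**Figure D4:**
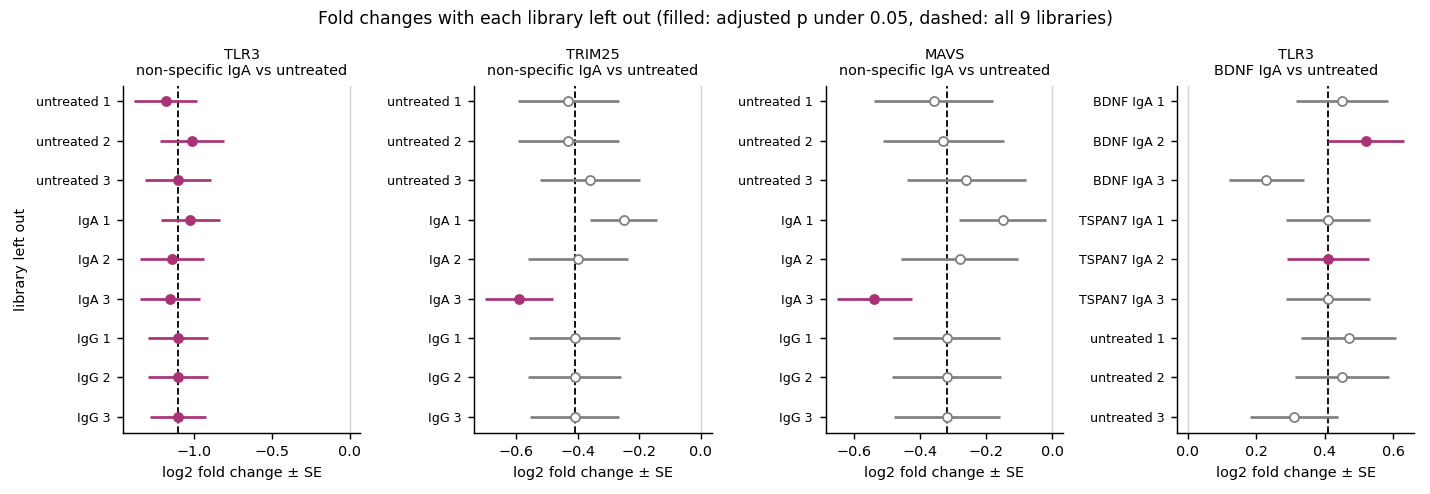
Log2 fold change ± SE of TLR3, TRIM25 and MAVS for non-specific IgA against untreated cells, and of TLR3 for BDNF IgA against untreated cells, with each of the 9 libraries of the series left out in turn; filled points passed the test, and the dashed line is the value with all 9. TLR3 passed in all 9 with non-specific IgA, TRIM25 and MAVS only without IgA replicate 3, and TLR3 with BDNF IgA in 2 of 9.

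The cytosolic helicases and PKR, which rose with both antigen-specific IgAs, passed no test with non-specific IgA. DDX58 was at 1456, 1740 and 1346 with IgA, 1589, 1388 and 1103 with IgG, and 1375, 1571 and 1211 untreated. The groups overlapped, with log2 fold changes of 0.16 (95% interval -0.17 to 0.48) against IgG and 0.13 (-0.19 to 0.45) against untreated cells. IFIH1 held 453.0, 397.7 and 377.5 with IgA, 364.9, 349.6 and 434.8 with IgG, and 457.9, 419.5 and 405.2 untreated, also overlapping, and its intervals were -0.22 to 0.42 and -0.38 to 0.26.

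DDX60 stood at 284.8, 260.8 and 350.7 with IgA, 288.4, 287.7 and 334.9 with IgG, and 325.0, 279.1 and 288.4 untreated. Its log2 fold change was -0.03 (-0.38 to 0.33) against IgG and 0.00 (-0.35 to 0.36) against untreated cells, where the sign turned with scaling. DHX58, the least abundant, held 46, 39 and 26.9 with IgA, 47.6, 62.8 and 56 with IgG, and 56.1, 40.4 and 55.6 untreated. All its IgA libraries lay below the IgG libraries, as for 20.6% of all genes. The log2 fold change of -0.56 (SE 0.34, adjusted p = 0.244) did not pass, nor did -0.43 against untreated cells (adjusted p = 0.382). EIF2AK2 showed the reverse, with 7699, 7621 and 8126 in IgA libraries above the 6955, 7107 and 7216 with IgG and the 7338, 7484 and 7085 untreated. So did 19.7% and 19.8% of all genes, and the log2 fold changes of 0.14 and 0.10 (SE 0.08, adjusted p = 0.244 and 0.428) did not pass and turned to -0.10 and -0.11 when libraries were scaled by size alone.

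IgG against untreated cells asked whether antibody as such acts on the cells. It gave 0 of 8 genes, and 0% of the 18012 genes were called by edgeR, with 89 at an unadjusted p under 0.05. DESeq2 likewise called 0, with 139 at an unadjusted p under 0.05. Both counts are lower than a threshold of 0.05 gives when no gene differs, so both tests were conservative here. The 0 calls therefore do not show that IgG has no effect. The groups overlapped for all 8 genes, where 6.75% of all genes had groups that did not, and the log2 fold changes ran from -0.16 for IFIH1 (95% interval -0.47 to 0.16) to 0.13 for DHX58 (-0.57 to 0.84).

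The wider pathway was read through 6 lists of genes named for their roles. In the second series, 3 of 26 partners and regulators of RIG-I and MDA5 rose and 1 fell with each antigen-specific IgA (15.4% called, against 7.67% of all genes with BDNF IgA and 8.54% with TSPAN7 IgA, median log2 fold change 0.01). Those that rose were DDX60L, the paralogue of DDX60 (0.94 with BDNF IgA and 1.09 with TSPAN7 IgA), TNFAIP3, which encodes the deubiquitinase A20 that limits NF-κB signalling (0.49 and 0.77), and NLRC5, a regulator of antigen presentation genes (0.30 and 0.37). PCBP1, an RNA-binding protein that promotes loss of MAVS, fell by 0.27 and 0.25.

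Downstream of MAVS and TLR3, 2 of 22 tested genes rose with BDNF IgA (9.09%, near the 7.67% of all genes) and 3 rose and 1 fell with TSPAN7 IgA (18.2%, against 8.54%). IRF7, the transcription factor that amplifies interferon production, rose from 380.6 ± 11.4 normalised counts to 812.5 ± 84.9 with BDNF IgA (log2 fold change 1.10, adjusted p = 8.78e-09) and 758.4 ± 46.4 with TSPAN7 IgA (1.00, adjusted p = 4.79e-08; SD, n = 3). UNC93B1, which carries nucleic acid sensing Toll-like receptors to endosomes, changed by 0.29 and 0.24. With TSPAN7 IgA the kinase gene TBK1 rose by 0.21 and TANK, which encodes a binding partner of that kinase, fell by 0.19.

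In the PKR and eIF2alpha arm of 17 genes, 1 rose and 1 fell with BDNF IgA (11.8%, against 7.67% of all genes), and 2 rose and 1 fell with TSPAN7 IgA (17.6%, against 8.54%). PRKRA, which encodes the PKR activator PACT, fell by 0.25 and 0.24 while PKR itself rose, and ATF4, the transcription factor made when eIF2alpha is phosphorylated, rose by 0.15 and 0.18. EIF2AK3, the eIF2alpha kinase of endoplasmic reticulum stress, rose by 0.23 with TSPAN7 IgA. Among 11 genes of paired-RNA processing, 3 rose and 1 fell with BDNF IgA (36.4%, against 7.67%), and 3 rose with TSPAN7 IgA (27.3%, against 8.54%). ADAR, the enzyme that edits adenosine in paired RNA, rose by 0.43 (adjusted p = 2.22e-07) and 0.40 (6.21e-07), and PNPT1, a mitochondrial RNA-degrading enzyme, by 0.18 and 0.39. SKIV2L, a helicase of the RNA exosome pathway (0.17), rose and DICER1, the processing enzyme of small RNAs (-0.18), fell with BDNF IgA, and DHX9, a nuclear RNA helicase, rose with TSPAN7 IgA (0.15). Between the antibodies PNPT1 was higher with TSPAN7 IgA by 0.21 (adjusted p = 0.0134).

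Among the cytosolic DNA sensors 5 of 8 were tested, of which 2 rose with BDNF IgA (40%, against 7.67%) and 1 with TSPAN7 IgA (20%, against 8.54%). IFI16, a nuclear and cytosolic DNA sensor, rose by 0.87 and 0.55, and TMEM173, which encodes STING, rose by 0.32 with BDNF IgA. Between the antibodies IFI16 was lower with TSPAN7 IgA (-0.31, adjusted p = 0.00982). Of the interferon and chemokine genes at the end of the pathway, 3 of 10 had enough counts to test. With each antibody 1 of these rose (33.3%, against 7.67% and 8.54% of all genes, medians 1.11 and 1.27). The genes tested were CXCL10, IFNE and CCL5, a chemokine gene with 1 to 17 counts in this series that passed no test. CXCL10, a chemokine gene induced by interferon, rose from 28.6 ± 7.23 normalised counts to 82.1 ± 5.51 with BDNF IgA (log2 fold change 1.52, adjusted p = 0.000132) and to 95.5 ± 9.75 with TSPAN7 IgA (1.74, adjusted p = 1.77e-05). Interferon genes themselves were at or near 0. IFNB1 had between 0 and 4 counts in any library of the second series, IFNL1 between 0 and 6 and IFNA1 0, while IFNE held 76 to 134 and passed no test.

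Some of these list calls in the second series rested on single libraries. With BDNF IgA, UNC93B1 was lost without BDNF IgA replicate 3 or untreated replicate 1 or 3 (0.24 to 0.34 over all libraries left out), NLRC5 without BDNF IgA replicate 3 or any 1 untreated replicate (0.24 to 0.40), and PNPT1 without BDNF IgA replicate 1 or untreated replicate 1 or 3 (0.14 to 0.21). ATF4 was lost without BDNF IgA replicate 1 or 3 or untreated replicate 1 or 2 (0.13 to 0.17). TMEM173 (0.24 to 0.43), DICER1 (-0.23 to -0.12) and SKIV2L (0.13 to 0.19) were lost without BDNF IgA replicate 1 or 3 or any 1 untreated replicate, and SKIV2L also without TSPAN7 IgA replicate 2. With TSPAN7 IgA, TBK1 was lost without TSPAN7 IgA replicate 2 or 3 or untreated replicate 2 or 3 (0.17 to 0.24), TANK without any 1 TSPAN7 IgA replicate or untreated replicate 1 or 3 (-0.21 to -0.17), and ATF4 without untreated replicate 1 (0.16 to 0.20). DHX9 was lost without any 1 TSPAN7 IgA or untreated replicate (0.14 to 0.15), EIF2AK3 without TSPAN7 IgA replicate 1 or 2 or any 1 untreated replicate (0.20 to 0.26), and UNC93B1 in 11 of 20 settings (adjusted p 0.0116 to 0.274). Between TSPAN7 IgA and BDNF IgA, 2 of 26 partners (ATG12, 0.36, and TNFAIP3, 0.28), 1 PKR arm gene (PPP1R15A, 0.21) and PNPT1 were higher with TSPAN7 IgA, and TANK (-0.20) and IFI16 were lower. That is 7.69% of the partners, 5.88% of the PKR arm and 4.55% of the signalling genes, where 7.92% of all genes were called. It is 9.09% of the paired-RNA processing genes and 20% of the DNA sensors tested, with 1 gene called in each. Of the genes named here, TNFAIP3 (0.25 to 0.34) was lost without BDNF IgA replicate 1 or TSPAN7 IgA replicate 1 or 2. PPP1R15A (0.19 to 0.24) was lost without BDNF IgA replicate 1 or 3 or TSPAN7 IgA replicate 3. TANK (-0.25 to -0.17) was lost without BDNF IgA replicate 1 or 3 or any 1 TSPAN7 IgA replicate. IFI16 (-0.41 to -0.20) and PNPT1 (0.18 to 0.23) were lost without BDNF IgA replicate 3 or TSPAN7 IgA replicate 2.

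With non-specific IgA, of the partners and regulators, 6 rose and 4 fell against IgG (38.5%), and 4 rose and 4 fell against untreated cells (30.8%), where 24.2% and 25.0% of all genes were called. TNFAIP3 rose from 312.4 ± 33.4 normalised counts with IgG to 5640 ± 1411 (log2 fold change 4.17, adjusted p = 2.71e-08), ATG12, a conjugation protein of autophagy, by 1.07 and PCBP2, another negative regulator of MAVS, by 0.51. ZC3HAV1, which encodes the antiviral zinc finger protein ZAP, fell by 0.87 (adjusted p = 0.00388). Against untreated cells these 4 genes changed by 4.10, 1.13, 0.56 and -0.81. DDX60L rose by 0.50 and 0.73. TOMM70A (-0.40 and -0.38) and MFN1 (-0.35 and -0.30), nuclear genes of mitochondrial proteins, fell in both comparisons. USP21, a deubiquitinase gene, fell against IgG (-0.42) and DHX15, a helicase gene, against untreated cells (-0.28).

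Among the signalling genes 3 rose and 6 fell in each comparison (40.9%, against 24.2% and 25.0% of all genes). TICAM1, which encodes TRIF, the adaptor of TLR3, rose by 1.22 against IgG and 1.26 against untreated cells (adjusted p = 0.000103 and 7.91e-05), while TLR3 itself fell. IRF7 rose by 1.10 and 0.89, and TRAF2, a ubiquitin ligase gene of the NF-κB pathway, by 0.41 and 0.47. The kinase genes RIPK1 (-0.84 and -0.85), IKBKE (-0.62 and -0.72) and IKBKB (-0.60 and -0.58) fell. So did the caspase genes CASP10 (-0.57 and -0.48) and CASP8 (-0.38 and -0.50). The CASP10 call against IgG was lost without IgG replicate 1 or 2 (-0.66 to -0.49 over all libraries left out). In the PKR arm 4 of 17 rose and 0 fell (23.5%), a share close to that among all genes (24.2% and 25.0%). They were PPP1R15A, which encodes the phosphatase subunit GADD34 that restores translation (2.24 and 2.21), DNAJC3, an inhibitor of eIF2alpha kinases (1.01 and 1.12), EIF2AK3, the kinase of endoplasmic reticulum stress (0.95 and 0.94), and EIF2AK4, the kinase of amino acid shortage (0.56 and 0.59). Of the processing enzymes DICER1 fell by 0.82 in both comparisons and DHX9 (0.52 and 0.57) and the editing enzyme gene ADARB1 (0.50 and 0.51) rose (27.3% called, near the 24.2% and 25.0% of all genes). The DNA sensor genes TMEM173 and DDX41 rose by 0.66 and 0.51 in each comparison (40% of 5 called against IgG, 60% against untreated cells, where 24.2% and 25.0% of all genes were). ZBP1, a sensor of left-handed nucleic acids, fell against untreated cells (-1.47, adjusted p = 0.0437), but at under 50 normalised counts it was named after its values were seen. Of the interferon and chemokine genes 2 could be tested, CXCL10 and IFNE, and 0 were called by edgeR. With IgG against untreated cells 0 genes of any list were called by edgeR.

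Against IgG, the EIF2AK4 (0.39 to 0.64), TOMM70A (-0.51 to -0.31) and IRF7 (0.88 to 1.34) calls were lost without IgG replicate 3, MFN1 (-0.41 to -0.28) without IgG replicate 2 or 3, IKBKB (-0.81 to -0.49) without IgA replicate 1 or IgG replicate 3, and DDX60L (0.37 to 0.59) without any 1 IgG replicate. USP21 (-0.55 to -0.33) was lost without IgA replicate 1 or any 1 IgG replicate, ADARB1 (0.42 to 0.62) without IgA replicate 1 or IgG replicate 2 or 3, and TRAF2 in 13 of 19 settings. Against untreated cells, TOMM70A (-0.49 to -0.29) was lost without untreated replicate 1 or 2, ADARB1 (0.43 to 0.63) without untreated replicate 1 or 3, IKBKB (-0.79 to -0.46) without IgA replicate 1 or 2 or untreated replicate 2 or 3, and TRAF2 (0.38 to 0.54) without IgA replicate 3 or any 1 untreated replicate. IRF7, DHX15 and MFN1 held in only 7, 8 and 10 of 19 settings there. Scaling by library size alone, which put the median of all genes at -0.25 against IgG and -0.22 against untreated cells, ended the calls of DHX9, DDX41, EIF2AK4, ADARB1 and TRAF2 in both comparisons, those of PCBP2, TMEM173 and DDX60L against IgG, and that of IRF7 against untreated cells.

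**Figure D5:**
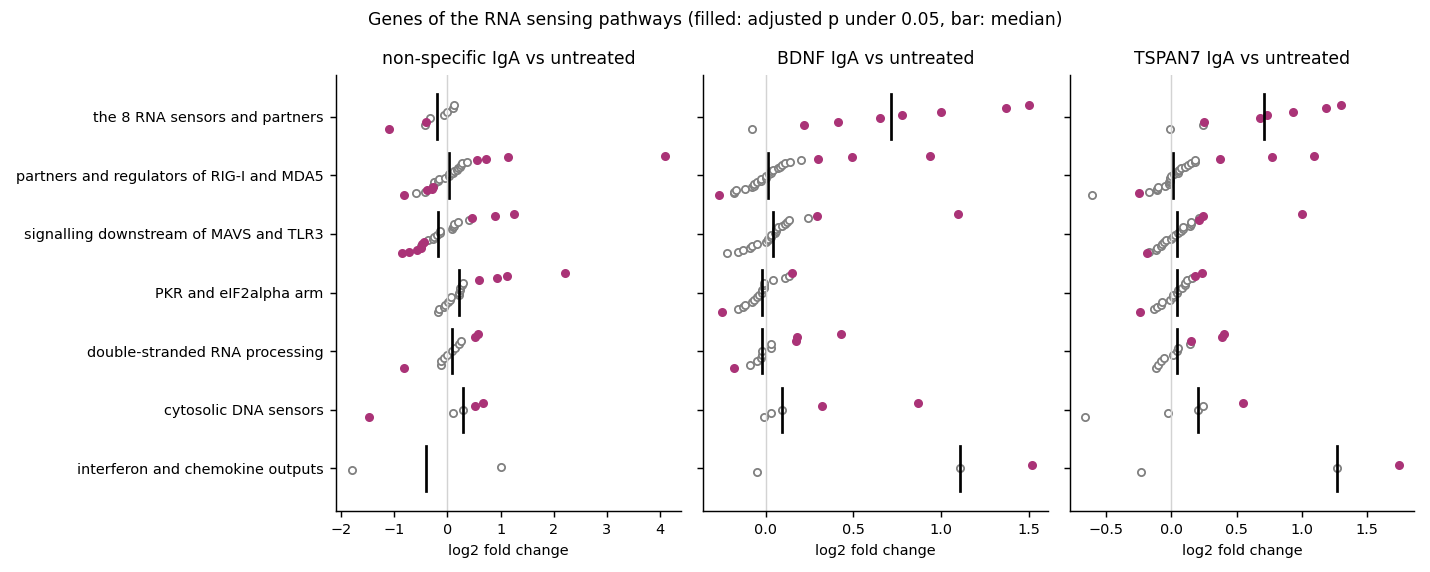
Log2 fold changes against untreated cells of the 8 genes and of the tested genes of the 6 lists (points; filled, adjusted p under 0.05; bars, list medians), each panel with its own scale. The median of the 8 is -0.19 with non-specific IgA, 0.72 with BDNF IgA and 0.70 with TSPAN7 IgA, and the medians of the 4 lists with at least 11 genes lie between -0.17 and 0.22 in all 3 panels. In the same order, the medians of the DNA sensors (5 tested) are 0.29, 0.09 and 0.20. Those of the interferon and chemokine genes (2, 3 and 3 tested) are -0.40, 1.11 and 1.27.

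The genes whose levels ran most like each member over the 9 libraries of the second series were found by Pearson's r of log2 values scaled to library size. The 9 points share treatment groups and library depth, so r is a description. For DDX58 they were OAS2 (0.9967), HELZ2 and IFI44, for IFIH1 IFI44 (0.9954), SAMHD1 and XAF1, and for DHX58 C19orf66 (0.9945), IRF7 and OAS2. DDX60 ran closest to PARP9 (0.9948), IFI27 and SAMHD1, and those of EIF2AK2 included ISG15 (0.9934) and SAMD9. TRIM25 ran with HELZ2 (0.9755), FBLIM1 and USP18. Most of these names are genes known to be induced by interferon. TLR3 (SRPX 0.9586, ATP2C1 and CEACAM19) and MAVS (HIST1H3F 0.9584, PHF23 and UBE2M) had weaker nearest neighbours with no such name among them.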

How the data were processed

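RNA of 18 OVCAR3 libraries was made into libraries with an RNA-seq kit for degraded RNA and sequenced in pairs of reads. Per the methods, the authors used STAR with GRCh37 and featureCounts for reads that aligned uniquely, after trimming by cutadapt 1.8.1. The submitters' processing notes name HTSeq 0.6.1 and bcl2fastq 2.20.0.422. The deposited values are raw counts, without normalization. The second table held 2055 rows that repeated another row exactly, with 1.99% to 2.46% of a library's counts, and they were removed. Groups and replicate numbers came from sample titles. Between replicates, chi-square per degree of freedom over genes was 3.91 to 232, above sampling noise. In the first series it was 67.0 to 232 between non-specific IgA libraries, 6.60 to 25.0 between IgG libraries and 12.5 to 23.0 between untreated libraries.

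Each series was fitted once with its 9 libraries in edgeR 4.0.16 (R 4.3.3; TMM, filterByExpr, quasi-likelihood F test, two-sided), with Benjamini-Hochberg adjustment over all genes tested and calls at an adjusted p under 0.05. SE was taken as |log2 fold change| over root F. On simulated data with 200 genes changed by 1.5 (log2) the fit recovered 94.5% for non-specific IgA against untreated cells (17544 genes, 5.97% of calls false) and 100% for TSPAN7 IgA (18412 genes, 4.76% false). The changed genes were well counted and all changed by that size. The rates therefore do not extend to smaller changes, low counts or a series in which many genes change. Positions and lengths are from GENCODE on GRCh37, and log2 CPM used a prior count of 2. Nothing was tested between series. Precision rests on the spread between libraries, since reads carry no molecular identifiers.

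The 8 genes, the 6 lists and the tests were chosen with earlier results of these data known. In each comparison and list, up to 4 called genes a direction could be named, by size of change, where a group averaged 50 normalised counts or more, and 3 nearest neighbours of each member, of which 1 is not reported here. The interferon genes, CCL5, ZBP1 and the cell type markers were named outside that rule. The alternatives used DESeq2 1.42.0, 3 further scalings, 2 further filters, removal of mitochondrial and ribosomal RNA genes, only the 6 libraries compared, adjusted p under 0.01, a replicate block, duplicate rows kept, and each library left out.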

Additional observations from a re-analysis of the deposited data

Results flagged for a closer look

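In 3 of the 8 genes, and in 5.61% of the 17548 genes tested in both series, every library with non-specific IgA lay on one side of the untreated mean of its series, and every library with an antigen-specific IgA on the other. DHX58 changed by -0.43 with non-specific IgA (not past the test), by 1.37 with BDNF IgA and by 1.18 with TSPAN7 IgA, as log2 fold changes, each against untreated cells of its own series. TLR3 changed by -1.10, 0.41 and 0.24 in that order, of which the last did not pass the test, and TRIM25 by -0.41, 0.22 and 0.25. The difference between the series was not tested. The 2 series have separate untreated cells, and antibody and series cannot be told apart. In non-specific IgA replicate 3, mitochondrial genes held 19.1% of counts, and TRIM25 and MAVS were highest there of the 3 IgA libraries (5663 and 1935 normalised counts), whereas DHX58 was lowest (26.9).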

How the results depend on the processing

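Of 936 refits of single members under alternatives, 861 kept direction and side of the threshold, 33 lost the call, 5 gained it and 37 changed sign. The calls of DDX58, IFIH1, DHX58, DDX60, EIF2AK2 and TRIM25 with both antigen-specific IgAs held in all 20 alternatives each, and TLR3 with BDNF IgA in 11 of 20. The count of 2 members lower with non-specific IgA, in either comparison, was 1 at an adjusted p under 0.01, with RLE scaling, without mitochondrial and ribosomal RNA genes and with only the 6 libraries compared (adjusted p of TRIM25 0.105 against IgG and 0.0949 against untreated cells), and from 1 to 3 with a library left out (3 without IgA replicate 3). MAVS passed the test with library size alone (-0.62 against IgG, -0.54 against untreated cells) and, against IgG, with no filter on low counts (-0.38). The causes were not tested.

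Changes of sign were of uncalled values. With library size alone, values against IgG were -0.10 for EIF2AK2, -0.13 for IFIH1 and -0.07 for DDX58, those against untreated cells -0.11 for EIF2AK2, -0.07 for DDX58 and -0.22 for DDX60, and that of DDX58 with IgG against untreated cells 0.00. This scaling moved the median of all genes from -0.01 to -0.25 and -0.22, and the share of higher calls from 51.9% to 19.4% against IgG and from 51.4% to 23.3% against untreated cells. DDX60 with non-specific IgA against untreated cells was 0.00 with DESeq2, a minimum of 50 counts and the replicate block, -0.04 with upper-quartile scaling and -0.01 with no filter. With each library left out, DDX60 ran from -0.16 to 0.06 (IgA against IgG), -0.13 to 0.09 (IgA against untreated) and -0.05 to 0.10 (IgG against untreated). In the last comparison TLR3 ran from -0.08 to 0.11, TRIM25 from -0.02 to 0.05, DDX58 from -0.15 to 0.10 and DHX58 from -0.01 to 0.23. MAVS ran from -0.07 to 0.02 with TSPAN7 IgA against untreated cells, and TSPAN7 IgA against BDNF IgA ran from 0.00 to 0.06 for EIF2AK2, -0.12 to 0.00 for IFIH1 and -0.28 to 0.01 for TLR3.

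Whether replicate numbers pair the samples was not settled, since weak correlations over all genes cannot exclude pairing. The correlation of same-numbered libraries' deviations ran from -0.07 to 0.25 in the first series (1 of 9 over 0.1) and -0.02 to 0.09 in the second (0 of 9). The highest, 0.25, was between untreated and IgG replicate 3. Untreated and IgG libraries of unlike number ran from -0.21 to 0.14. With the replicate block the members called were 2 lower in both non-specific IgA comparisons, 7 higher with BDNF IgA and 6 higher with TSPAN7 IgA, and it changed no call of a member. Over all genes, leaving out 1 library moved the calls with BDNF IgA from 841 higher and 596 lower to 1505 and 1293 without BDNF IgA replicate 2, to 506 and 337 without replicate 1 and to 429 and 305 without replicate 3. Those with TSPAN7 IgA fell from 836 and 764 to 429 and 328 without TSPAN7 IgA replicate 2. Counts against IgG fell from 2265 and 2095 to 1339 and 1227 without IgG replicate 3, and those against untreated cells from 2316 and 2187 to 1365 and 1236 without untreated replicate 3. At an adjusted p under 0.01 they were 403 and 235 with BDNF IgA, 429 and 342 with TSPAN7 IgA, 1114 and 927 against IgG, and 1166 and 964 against untreated cells. TSPAN7 IgA against BDNF IgA ran from 196 to 1554 higher and 286 to 1722 lower with a library left out. Of 85 calls of list genes open to naming, 50 held with every library left out, and 0 changed sign. DHX58 had as few as 17 counts in a library of the first series.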
